A study of Mus musculus with 18 samples.

Results

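The metallothioneins Mt1 and Mt2, the zinc transporters Slc30a1 and Slc39a14 and the metal sensor Mtf1 were followed in liver RNA of 18 female mice of the B6C3F1 hybrid. The probe sets whose platform annotation names one of these symbols and no other gene were taken, which gave 14 of 45101 probe sets on the array. Of these, 12 passed a filter on low values, and each gene was represented by its brightest probe set on average, giving 5 of the 12169 genes tested. The members were chosen by name, with earlier results of these data known.

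Exposure lasted 13 weeks, from an age of 5 weeks to 18 weeks, with 3 animals in each of 6 groups and 1 array per animal. The submitters class 1,5-naphthalenediamine (2000 ppm in feed) as positive for liver tumours, and likewise 2,3-benzofuran (240 mg/kg in corn oil by gavage, 5 days per week). The dihydrochloride of N-(1-naphthyl)ethylenediamine (2000 ppm in feed) is classed as negative, as is pentachloronitrobenzene (8187 ppm in feed). Feed groups were exposed 7 days per week. Corn oil controls received the vehicle alone by gavage (5 ml/kg), and the 3 chemicals given in feed share the feed controls. Each chemical was tested at a single dose, and 3 arrays per group limit the precision. The study was set up to find liver expression markers of tumours in long-term bioassays.

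Metallothioneins are small cysteine-rich proteins that bind zinc and copper in the cytosol, and the liver makes large amounts of them. The transcription factor MTF1 senses free zinc and binds metal response elements in the promoters of Mt1, Mt2 and Slc30a1, while glucocorticoids and cytokines also induce metallothioneins in liver. SLC30A1 (ZnT1) carries zinc out of the cell across the plasma membrane, and SLC39A14 (ZIP14) carries zinc, manganese and non-transferrin-bound iron into hepatocytes and is induced by interleukin 6.

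The promoters of the members known to be driven by MTF1 are printed here so that the elements can be seen beside the expression values. Promoter windows, from RefSeq on GRCm38.p6, run from 250 bases before to 50 bases after a transcript start, and 4 of the 5 members had a window. That start is the first base of the annotated gene for Mt2 and Mtf1, and lies 206 bases inside the gene for Mt1 and 84 bases inside it for Slc30a1, whose annotated spans begin further upstream. The core of the metal response element was searched as TGCACNC and TGCGCNC on both strands, with overlapping matches counted, and matches are in capitals. Mt1 lies at chr8:94178883-94180327 and Mt2 at chr8:94172618-94173567, both on the plus strand. Slc30a1 lies at chr1:191906697-191913248, Mtf1 at chr4:124802549-124849800 and Slc39a14 at chr14:70303467-70351452.
Mt1, chr8:94178839-94179138, plus strand: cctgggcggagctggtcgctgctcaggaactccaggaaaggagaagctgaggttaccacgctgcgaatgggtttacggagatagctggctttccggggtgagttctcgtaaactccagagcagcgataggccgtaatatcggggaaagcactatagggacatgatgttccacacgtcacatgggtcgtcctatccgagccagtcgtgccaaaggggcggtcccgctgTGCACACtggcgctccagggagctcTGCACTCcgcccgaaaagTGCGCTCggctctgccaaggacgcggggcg
Mt2, chr8:94172368-94172667, plus strand: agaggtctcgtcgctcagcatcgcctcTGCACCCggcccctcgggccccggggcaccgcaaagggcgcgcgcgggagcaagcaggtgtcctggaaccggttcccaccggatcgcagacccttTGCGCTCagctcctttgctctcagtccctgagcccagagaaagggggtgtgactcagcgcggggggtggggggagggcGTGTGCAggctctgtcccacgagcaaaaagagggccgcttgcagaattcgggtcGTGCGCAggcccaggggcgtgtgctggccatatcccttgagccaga
Slc30a1, chr1:191906531-191906830, plus strand: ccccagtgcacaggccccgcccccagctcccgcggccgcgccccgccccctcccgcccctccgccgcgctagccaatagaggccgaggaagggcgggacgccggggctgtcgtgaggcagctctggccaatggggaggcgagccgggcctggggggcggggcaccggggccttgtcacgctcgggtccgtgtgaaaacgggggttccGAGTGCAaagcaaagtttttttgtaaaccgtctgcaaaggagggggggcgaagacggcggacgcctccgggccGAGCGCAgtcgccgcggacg
The Mt2 window held 4 matches, at -223, -128, -50 and 5 counted from the transcript start of the window. The Mt1 window held 3, at -23, 3 and 21, and the Slc30a1 window held 2, at -43 and 31. The window of Mtf1 held 0. Among 32851 promoter windows of the same length, 25.7% held at least 1 match, 7.11% at least 2, 1.97% at least 3 and 0.517% at least 4. A match describes these letters only, and binding was not measured.

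Values are the deposited log2 signals. A change is a difference of log2 group means from which the median over all genes was subtracted. That median was 0.175 with 1,5-naphthalenediamine, 0.155 with N-(1-naphthyl)ethylenediamine, 0.148 with pentachloronitrobenzene, 0.109 with 2,3-benzofuran and 0.0387 between corn oil and feed controls. A gene was called at a limma adjusted p under 0.05 on the deposited scale. A p-value printed beside a change thus tests it before the median was subtracted. Confidence intervals are those of the subtracted value. The median signal of an array was 4.25 to 4.35, and any pair of arrays correlated at 0.979 to 0.995. The RNA integrity number ranged from 7.4 to 9.4. The 18S ribosomal probe signal was 7.93 to 11.6 in 5 arrays (1,5-naphthalenediamine animal 4, 2,3-benzofuran animals 6 and 10, N-(1-naphthyl)ethylenediamine animals 12 and 14) and 5.94 to 6.97 in the other 13. The hepatocyte markers Alb, Apoa1, Ttr, Ambp and Apob were bright in every group, with a log2 of their summed signal of 16.1 to 16.3.

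Under N-(1-naphthyl)ethylenediamine 4 of 5 members rose against feed controls: Mt1, Mt2, Slc30a1 and Slc39a14. In that comparison 24.7% of all tested genes were called higher and 4.37% lower. Under 1,5-naphthalenediamine 1 of 5 was called higher, Mt2, where 31.5% of all genes were called higher and 8.41% lower. Under 2,3-benzofuran 1 of 5 was called lower, Slc39a14, where 24.8% of all genes were called higher and 7.58% lower. Under pentachloronitrobenzene limma called 0 of 5, where 14.6% of all genes were called higher and 3.87% lower, although Mt2 and Slc30a1 had unadjusted p-values of 0.0354 and 0.0185. A change in bulk liver RNA can come from the number of cells of a type or from the RNA per cell, and these cannot be told apart.

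**Figure D1:**
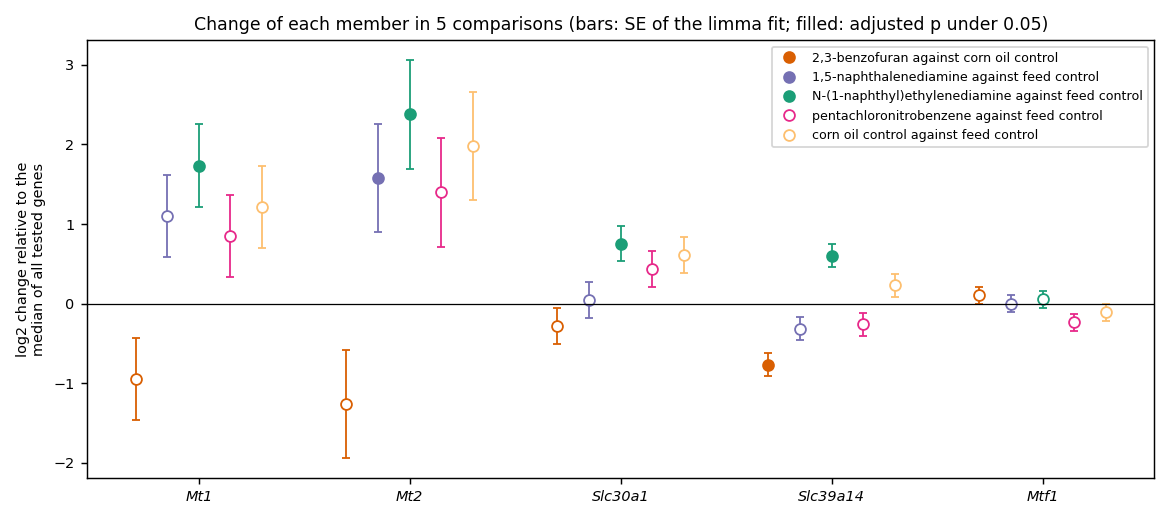
Log2 change of each member over that of the median gene (y axis) in 5 comparisons, with the SE of the limma fit; filled points had an adjusted p under 0.05. Mt1, Mt2, Slc30a1 and Slc39a14 were filled for N-(1-naphthyl)ethylenediamine, Mt2 for 1,5-naphthalenediamine and Slc39a14, below 0, for 2,3-benzofuran.

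Mt2 showed the widest spread of the members. Its log2 signal in the 3 N-(1-naphthyl)ethylenediamine animals was 11.90, 9.49 and 11.92. It was 10.25, 11.12 and 9.62 in the 1,5-naphthalenediamine animals and 10.79, 9.15 and 10.41 in the pentachloronitrobenzene animals, against 7.63, 9.19 and 8.90 in the feed controls. Every 1,5-naphthalenediamine and N-(1-naphthyl)ethylenediamine animal lay above every feed control, whereas the lowest pentachloronitrobenzene animal lay just under the highest control. With gavage, Mt2 was 9.23, 8.22 and 10.87 in the 2,3-benzofuran animals, against 10.66, 11.25 and 9.85 in the corn oil controls, and the groups overlapped. Over all 18 animals the signal spanned 4.29 log2 units, a 19.6-fold range and the 21st widest of the 12169 genes.

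The Mt2 change was 2.38 ± 0.68 (SE, n = 3 per group) for N-(1-naphthyl)ethylenediamine, a 5.20-fold rise (adjusted p = 0.0119). It was 1.58 ± 0.68 for 1,5-naphthalenediamine, a 2.99-fold rise close to the threshold (adjusted p = 0.0475). The value for pentachloronitrobenzene was 1.40 ± 0.68 (adjusted p = 0.108) and that for 2,3-benzofuran -1.26 ± 0.68 (adjusted p = 0.203), and neither was called. With each array centred on its own median gene, the 1,5-naphthalenediamine value was not called (adjusted p = 0.0973), while the N-(1-naphthyl)ethylenediamine call was kept (adjusted p = 0.0263). Leaving out animal 12 or animal 15 ended the N-(1-naphthyl)ethylenediamine call (1.99, adjusted p = 0.064, and 1.96, adjusted p = 0.0518). The 1,5-naphthalenediamine call was lost without treated animal 2 (1.63, adjusted p = 0.0817) or 4 (1.20, adjusted p = 0.175) and without control 27 (1.09, adjusted p = 0.178) or 29 (1.81, adjusted p = 0.0825).

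Mt1 followed the same outline with smaller steps. Its signal in the N-(1-naphthyl)ethylenediamine animals was 13.05, 11.97 and 13.08. It was 12.54, 12.42 and 11.31 under 1,5-naphthalenediamine and 12.30, 11.49 and 11.64 under pentachloronitrobenzene, against 10.12, 11.94 and 10.37 in the feed controls. Feed control 28 stood above the other 2 controls and overlapped both the 1,5-naphthalenediamine and the pentachloronitrobenzene animals. The 2,3-benzofuran animals had 10.88, 10.24 and 12.56, against 12.09, 12.45 and 11.65 in the corn oil controls, so animal 10 alone exceeded every control of its route. Mt1 rose 3.33-fold under N-(1-naphthyl)ethylenediamine (1.74 ± 0.52, adjusted p = 0.0133). This call was lost without animal 12 (1.57, adjusted p = 0.0579) and without feed control 27 (1.37, adjusted p = 0.0521) or 29 (1.57, adjusted p = 0.0639). For 1,5-naphthalenediamine the value was 1.10 ± 0.52 (adjusted p = 0.0571), which became 1.63 without feed control 28 (adjusted p = 0.0106) and 1.48 without treated animal 5 (adjusted p = 0.0292). Pentachloronitrobenzene gave 0.85 ± 0.52 (adjusted p = 0.165), or 1.38 without feed control 28 (adjusted p = 0.0421), and 2,3-benzofuran gave -0.95 ± 0.52 (adjusted p = 0.224), or -1.61 without animal 10 (adjusted p = 0.0283). A dimmer Mt1 probe set was called for none of the 4 chemicals by limma, with unadjusted p-values of 0.096 to 0.993 and a change of 0.75 ± 0.61 (adjusted p = 0.30) for N-(1-naphthyl)ethylenediamine.

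**Figure D2:**
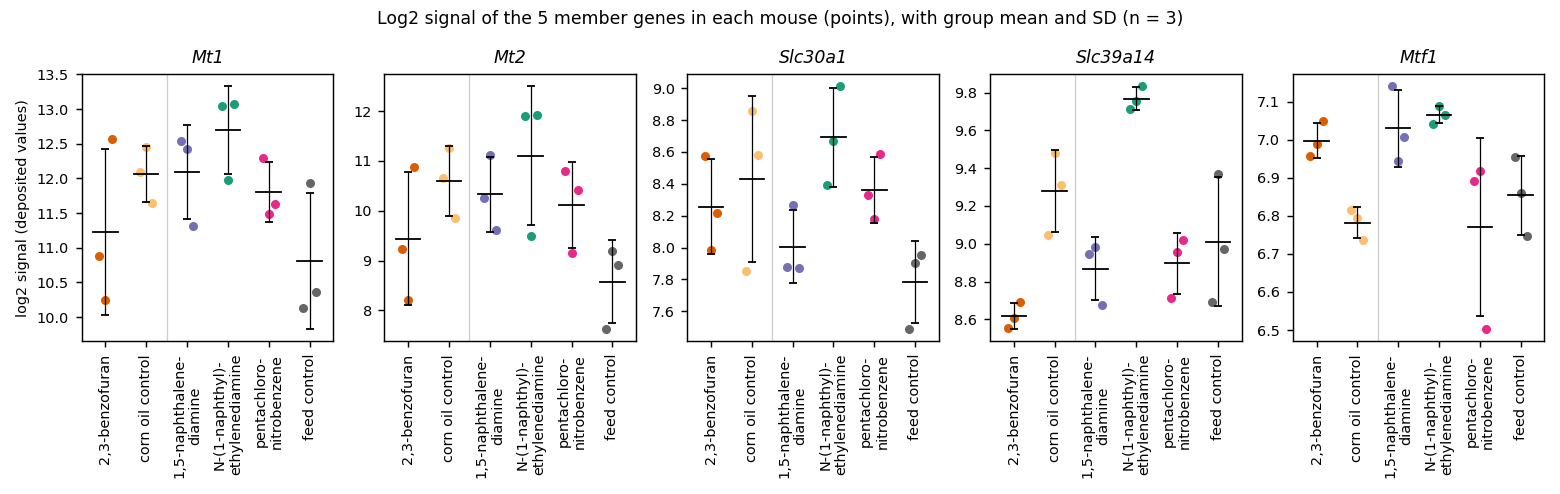
Log2 signal (y axes, scale differs by gene) of each member in each of 18 mice, with the group mean and SD (n = 3); the grey line separates the gavage groups from the feed groups. The N-(1-naphthyl)ethylenediamine animals have the highest group mean for all 5 genes, and for Slc39a14 all 3 lie above every other animal.

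On the brightest Mt1 probe set, Mt1 and Mt2 varied together from animal to animal. Over the 18 arrays Pearson's r was 0.917 and Spearman's rho 0.899 (permutation p = 1e-05, the smallest that 100000 resamples give, and 2e-05), and r was 0.862 without the 2 animals farthest from the median. Over deviations from the group means, which remove the treatment, r was 0.851 and rho 0.781 (permutation p = 7e-05 and 0.0012), and 0.847 without 2 animals. These are 2 forms of 1 relation, and the p-values were not adjusted. Animals high in both genes were found among treated animals and corn oil controls: corn oil control 24 reached 12.45 for Mt1 and 11.25 for Mt2, next to 1,5-naphthalenediamine animal 4 with 12.42 and 11.12. The feed controls reached no more than 11.94 for Mt1 and 9.19 for Mt2. With the second Mt1 probe set Pearson's r with Mt2 was 0.44 and rho 0.501 (permutation p = 0.068 and 0.036). Over deviations from the group means they were 0.319 and 0.354 (permutation p = 0.24 and 0.21). The genes are neighbours on chromosome 8.

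**Figure D3:**
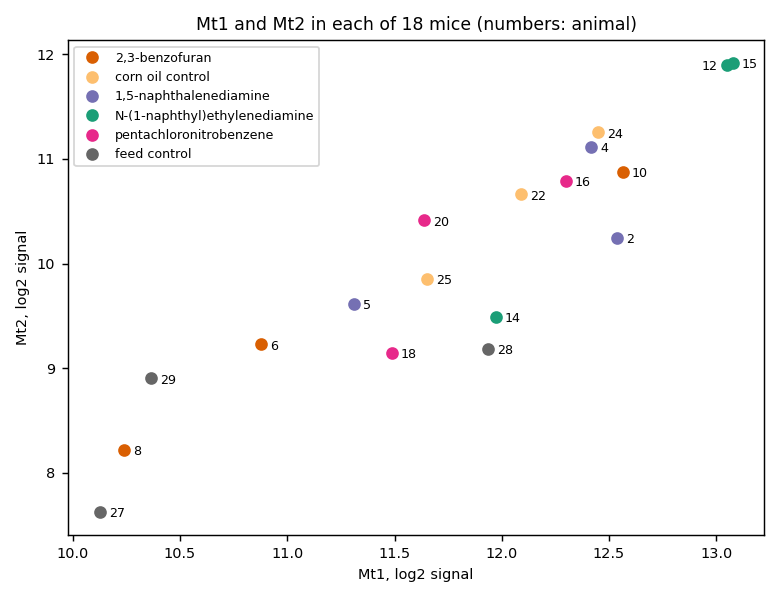
Log2 signal of Mt2 (y axis) against Mt1 (x axis) in each mouse, coloured by group and numbered by animal. Points of every group run along 1 band, with feed control 27 at the low end and N-(1-naphthyl)ethylenediamine animals 12 and 15 at the high end.

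The exporter Slc30a1 had a signal of 8.39, 8.67 and 9.01 in N-(1-naphthyl)ethylenediamine animals. It was 7.88, 8.27 and 7.87 in 1,5-naphthalenediamine animals and 8.33, 8.18 and 8.59 in pentachloronitrobenzene animals, against 7.49, 7.91 and 7.96 in feed controls. The N-(1-naphthyl)ethylenediamine and pentachloronitrobenzene animals all lay above the controls, and the 1,5-naphthalenediamine animals overlapped them. Slc30a1 rose 1.69-fold under N-(1-naphthyl)ethylenediamine (0.75 ± 0.22, adjusted p = 0.00768), and this call was kept without any 1 of the 18 arrays (0.59 to 0.92). The values were 0.43 ± 0.22 for pentachloronitrobenzene (adjusted p = 0.0737) and 0.05 ± 0.22 for 1,5-naphthalenediamine (adjusted p = 0.436). The 2,3-benzofuran animals had 8.57, 7.98 and 8.22, against 7.85, 8.86 and 8.58 in corn oil controls, a change of -0.28 ± 0.22 (adjusted p = 0.578) with overlapping groups. A dimmer probe set of the gene was called higher for all 3 feed chemicals, by 0.33 ± 0.15 for 1,5-naphthalenediamine (adjusted p = 0.0264), 0.45 ± 0.15 for N-(1-naphthyl)ethylenediamine (adjusted p = 0.0148) and 0.39 ± 0.15 for pentachloronitrobenzene (adjusted p = 0.0345). For 2,3-benzofuran it had 0.30 ± 0.15 (adjusted p = 0.071), not called and opposite in direction to the brightest.

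The importer Slc39a14 rose under N-(1-naphthyl)ethylenediamine and fell under 2,3-benzofuran on its brightest probe set. Its signal was 9.71, 9.76 and 9.83 in the N-(1-naphthyl)ethylenediamine animals, 8.95, 8.98 and 8.68 in the 1,5-naphthalenediamine animals and 8.72, 8.96 and 9.02 in the pentachloronitrobenzene animals, against 8.69, 9.37 and 8.97 in feed controls. It was 8.56, 8.61 and 8.69 in the 2,3-benzofuran animals, against 9.05, 9.48 and 9.31 in corn oil controls. No N-(1-naphthyl)ethylenediamine animal overlapped the feed controls, and no 2,3-benzofuran animal overlapped the corn oil controls. Slc39a14 rose 1.52-fold under N-(1-naphthyl)ethylenediamine (0.60 ± 0.15, adjusted p = 0.00223) and fell 1.70-fold under 2,3-benzofuran (-0.77 ± 0.15, adjusted p = 0.00267). Both calls were kept when any 1 of the 18 arrays was left out (0.42 to 0.75 and -0.87 to -0.68). The values for 1,5-naphthalenediamine (-0.32 ± 0.15, adjusted p = 0.443) and pentachloronitrobenzene (-0.26 ± 0.15, adjusted p = 0.572) were not called. Without the 5 arrays of high 18S signal the 2,3-benzofuran call was lost at a like size (-0.78, adjusted p = 0.0937). Centring each array on its own median gene brought the lower Slc39a14 value under 1,5-naphthalenediamine past the threshold (adjusted p = 0.0342). In that fit Mt2 was not called for this chemical.

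The 4 Slc39a14 probe sets agreed for 2,3-benzofuran and split for N-(1-naphthyl)ethylenediamine. In a fit on the 24338 kept probe sets, where 25.9% were called for 2,3-benzofuran, all 4 were called lower, by -0.75 to -0.90. For N-(1-naphthyl)ethylenediamine, where 24.5% were called, the brightest (0.64 ± 0.15, adjusted p = 0.0029) and the dimmest (0.59 ± 0.25, adjusted p = 0.0478) were called higher. The pair of middle brightness had values of -0.35 ± 0.12 (adjusted p = 0.148) and -0.32 ± 0.19 (adjusted p = 0.461). For 1,5-naphthalenediamine, where 33.8% were called, that same pair was called lower, by -0.80 ± 0.12 (adjusted p = 0.000777) and -0.97 ± 0.19 (adjusted p = 0.00405). On the brighter of that pair the 1,5-naphthalenediamine animals had 6.72, 6.56 and 6.77 and the N-(1-naphthyl)ethylenediamine animals 6.97, 7.19 and 7.14, against 7.25, 7.41 and 7.35 in feed controls. Every animal of both treatments lay under the controls on this probe set, where N-(1-naphthyl)ethylenediamine animals lay above them on the brightest one. For pentachloronitrobenzene, where 13.2% were called, limma called 0 of the 4 (unadjusted p of 0.0477 to 0.704). The rise of Slc39a14 under N-(1-naphthyl)ethylenediamine was thus seen on 2 of its 4 probe sets.

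**Figure D4:**
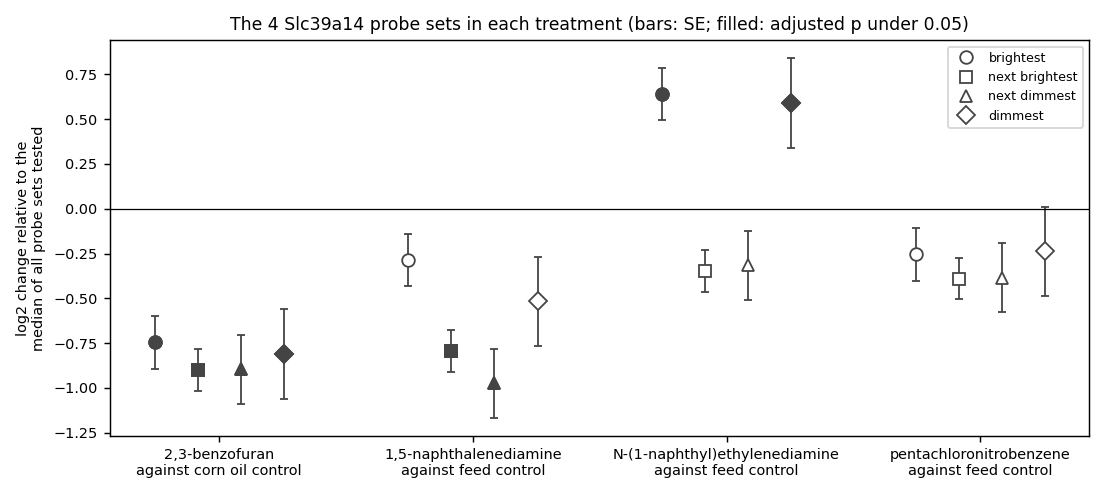
Log2 change of the 4 Slc39a14 probe sets relative to the median of all probe sets tested (y axis), with the SE of the limma fit; filled symbols had an adjusted p under 0.05. All 4 are filled and below 0 for 2,3-benzofuran, while for N-(1-naphthyl)ethylenediamine 2 are filled and above 0 and 2 are open and below it.

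The sensor Mtf1 was the steadiest member. On its brightest probe set the signal lay between 6.50 and 7.14 in all 18 animals, a range of 0.64 log2 units, and limma called it for none of the 4 chemicals (unadjusted p of 0.0594 to 0.449). The changes were 0.06 ± 0.11 for N-(1-naphthyl)ethylenediamine, 0.00 ± 0.11 for 1,5-naphthalenediamine, 0.11 ± 0.11 for 2,3-benzofuran and -0.23 ± 0.11 for pentachloronitrobenzene. Dimmer probe sets moved in single comparisons. The next brightest was higher by 0.55 ± 0.16 under N-(1-naphthyl)ethylenediamine (adjusted p = 0.00781), with 6.15, 5.97 and 5.91 against 5.42, 5.39 and 5.23 in feed controls. The one after it was higher by 0.35 ± 0.13 under 1,5-naphthalenediamine (adjusted p = 0.00749), with 5.29, 5.18 and 5.13 against 4.85, 4.66 and 4.63 in feed controls. The 2 dimmest Mtf1 probe sets did not pass the filter, with means of 3.70 and 3.37 under the lowest array median of 4.25.

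The 2 control groups were compared to see the background of route and vehicle. The value for corn oil controls over feed controls was 1.98 ± 0.68 for Mt2, 1.22 ± 0.52 for Mt1 and 0.61 ± 0.22 for Slc30a1, with unadjusted limma p-values of 0.00819, 0.0261 and 0.00977. After adjustment none of the 5 members was called (adjusted p = 0.316, 0.448 and 0.327), and 0.123% of all genes were. Every corn oil control lay above every feed control for Mt2, and the groups overlapped for Mt1 and Slc30a1. Route and vehicle differ together between these groups. Ordered by mean, the groups ran N-(1-naphthyl)ethylenediamine (11.10 ± 1.40), corn oil control (10.59 ± 0.70), 1,5-naphthalenediamine (10.33 ± 0.75), pentachloronitrobenzene (10.12 ± 0.86), 2,3-benzofuran (9.44 ± 1.34) and feed control (8.57 ± 0.83) for Mt2 (SD, n = 3), and each group overlapped the next. The same was true of Mt1 and Slc30a1, which also had N-(1-naphthyl)ethylenediamine first and feed control last. For Slc39a14 the order was N-(1-naphthyl)ethylenediamine (9.77 ± 0.06), corn oil control (9.28 ± 0.22), feed control (9.01 ± 0.34), pentachloronitrobenzene (8.90 ± 0.16), 1,5-naphthalenediamine (8.87 ± 0.17) and 2,3-benzofuran (8.62 ± 0.07), and the first gap was the only one between neighbours without overlap.

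Chemicals were compared directly in 6 pairs from the same fit. 1,5-naphthalenediamine and N-(1-naphthyl)ethylenediamine are both naphthalene amines and were given at the same 2000 ppm for the same time. The first carries an amino group on each ring, and the second carries an ethylenediamine group bound to a single ring through a nitrogen. Slc39a14 differed between them by -0.90 ± 0.15 (adjusted p = 0.00114), a level 1.86-fold lower under 1,5-naphthalenediamine, with no overlap, and 5.47% of all genes were called for this pair. Tested singly, 3 of the 4 Slc39a14 probe sets were lower under 1,5-naphthalenediamine (adjusted p = 0.00159, 0.0183 and 0.0464), and the next dimmest had -0.64 ± 0.19 (adjusted p = 0.0666). For the other members the difference was not called on the brightest probe set. The 95% confidence intervals were -2.20 to 0.65 for Mt2, -1.70 to 0.48 for Mt1, -1.15 to -0.21 for Slc30a1 (adjusted p = 0.0829) and -0.26 to 0.19 for Mtf1. The dimmer Slc30a1 probe set had -0.11 ± 0.15 (adjusted p = 0.776). Of the dimmer Mtf1 probe sets kept, 1 was called higher under 1,5-naphthalenediamine (0.59 ± 0.13, adjusted p = 0.00947), and the other was not called (-0.27 ± 0.16, adjusted p = 0.385). The remaining pairs differ in dose. N-(1-naphthyl)ethylenediamine exceeded pentachloronitrobenzene for Slc39a14 by 0.84 ± 0.15 (adjusted p = 0.00207), where 2.69% of genes were called. Only the brightest probe set was called for this pair. Tested singly, the next brightest showed 0.00 ± 0.12 (adjusted p = 0.965), the next dimmest 0.03 ± 0.19 (adjusted p = 0.932) and the dimmest 0.79 ± 0.25 (adjusted p = 0.0842). Between 1,5-naphthalenediamine and pentachloronitrobenzene limma called 0 of 5 members, where 4.03% of genes were called, with Mtf1 at an unadjusted p of 0.0266.

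Pairs with 2,3-benzofuran compare effects, each against its own control. The N-(1-naphthyl)ethylenediamine effect exceeded that of 2,3-benzofuran by 2.70 ± 0.73 for Mt1 (adjusted p = 0.0351), 3.65 ± 0.96 for Mt2 (adjusted p = 0.0304) and 1.38 ± 0.21 for Slc39a14 (adjusted p = 0.000505), where 5.59% of all genes were called. Slc30a1 differed by 1.05 ± 0.32 (adjusted p = 0.053). The Slc39a14 difference was called without any 1 array on the brightest probe set (1.21 to 1.54). Tested singly, its dimmest probe set was also called (1.41, adjusted p = 0.0273). The pair of middle brightness was not, with 0.57 (adjusted p = 0.0523) and 0.59 (adjusted p = 0.219). Mt1 and Mt2 both lost theirs without any 1 of 6 arrays, which were 2,3-benzofuran animals 6 and 8, N-(1-naphthyl)ethylenediamine animals 12 and 15, corn oil control 24 and feed control 27 (2.21 to 2.53 for Mt1 and 3.05 to 3.54 for Mt2). Mt1 alone lost its call without corn oil control 25 (2.91, adjusted p = 0.0505) or feed control 29 (2.51, adjusted p = 0.0617). For 1,5-naphthalenediamine the differences from 2,3-benzofuran were 2.09 ± 0.73 for Mt1 and 2.88 ± 0.96 for Mt2 (adjusted p = 0.211 and 0.186), and limma called 0 of 5 members, where 0.961% of genes were called. For pentachloronitrobenzene they were 1.84 ± 0.73 and 2.70 ± 0.96 (adjusted p = 0.237 and 0.173), again with 0 of 5 called, where 2.89% of genes were called. Unadjusted p-values of Mt1 and Mt2 in these last pairs lay between 0.0073 and 0.022.

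The other zinc transporters were counted beside the members. The shares of all tested genes called higher, which are the background of these and the later list counts, were 24.8% under 2,3-benzofuran, 31.5% under 1,5-naphthalenediamine, 24.7% under N-(1-naphthyl)ethylenediamine and 14.6% under pentachloronitrobenzene, and 7.58%, 8.41%, 4.37% and 3.87% were called lower in that order. Of 7 other SLC30 genes tested, 4 were called higher under 2,3-benzofuran and 3 under 1,5-naphthalenediamine, and under N-(1-naphthyl)ethylenediamine 2 were called higher and 1 lower. Under pentachloronitrobenzene limma called none of the 7, with unadjusted p-values of 0.0556 or more. The median relative change of the 7 lay between -0.01 and 0.26 in the 4 comparisons, where the median of all tested genes is 0. Slc30a7, which loads zinc into the early secretory pathway, rose by 0.90 ± 0.11 under 2,3-benzofuran (adjusted p = 8.97e-06), 0.31 ± 0.11 under 1,5-naphthalenediamine (adjusted p = 0.00347) and 0.19 ± 0.11 under N-(1-naphthyl)ethylenediamine (adjusted p = 0.0316). Slc30a4 rose by 0.64 ± 0.16 under 2,3-benzofuran (adjusted p = 0.00226). Slc30a10, a plasma membrane transporter that exports manganese in liver, fell by 0.85 ± 0.20 on the log2 scale under N-(1-naphthyl)ethylenediamine (adjusted p = 0.016), where Slc30a1 rose. Its signal there was 7.28 to 7.59 in the 3 animals, against 7.89 to 8.30 in feed controls.

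Of 12 other SLC39 importers tested, 6 were called higher under 2,3-benzofuran, 6 under 1,5-naphthalenediamine, 4 under N-(1-naphthyl)ethylenediamine and 2 under pentachloronitrobenzene, and none was called lower. Slc39a2 and Slc39a6 averaged 3.73 to 3.87 in the control groups, under the lowest array median of 4.25, and passed the filter on low values only through treated animals. Of the other 10 importers, 5 were called higher under 2,3-benzofuran, 4 under 1,5-naphthalenediamine, 3 under N-(1-naphthyl)ethylenediamine and 1 under pentachloronitrobenzene, a count chosen after seeing the data. Slc39a4, the zinc importer mutated in the human zinc deficiency disease acrodermatitis enteropathica, rose under every chemical. It rose by 0.77 ± 0.11 under 2,3-benzofuran (adjusted p = 2.78e-05) and 0.65 ± 0.11 under 1,5-naphthalenediamine (adjusted p = 6.99e-05). It rose by 0.41 ± 0.11 under N-(1-naphthyl)ethylenediamine (adjusted p = 0.00257) and 0.24 ± 0.11 under pentachloronitrobenzene (adjusted p = 0.0263). Its mean signal was 9.11 ± 0.16 with 2,3-benzofuran, against 8.23 ± 0.16 in corn oil controls (SD, n = 3 each), and the difference between 1,5-naphthalenediamine and pentachloronitrobenzene was itself called (0.41 ± 0.11, adjusted p = 0.0333). Slc39a11 rose by 0.59 ± 0.12 under 2,3-benzofuran (adjusted p = 0.00031). Slc39a8, the closest relative of Slc39a14, was called only under 1,5-naphthalenediamine, by 0.13 ± 0.11 (adjusted p = 0.0354), and the difference between chemicals was not called for it. Slc39a10 averaged 4.37 and 4.35 in the control groups, just above the lowest array median.

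**Figure D5:**
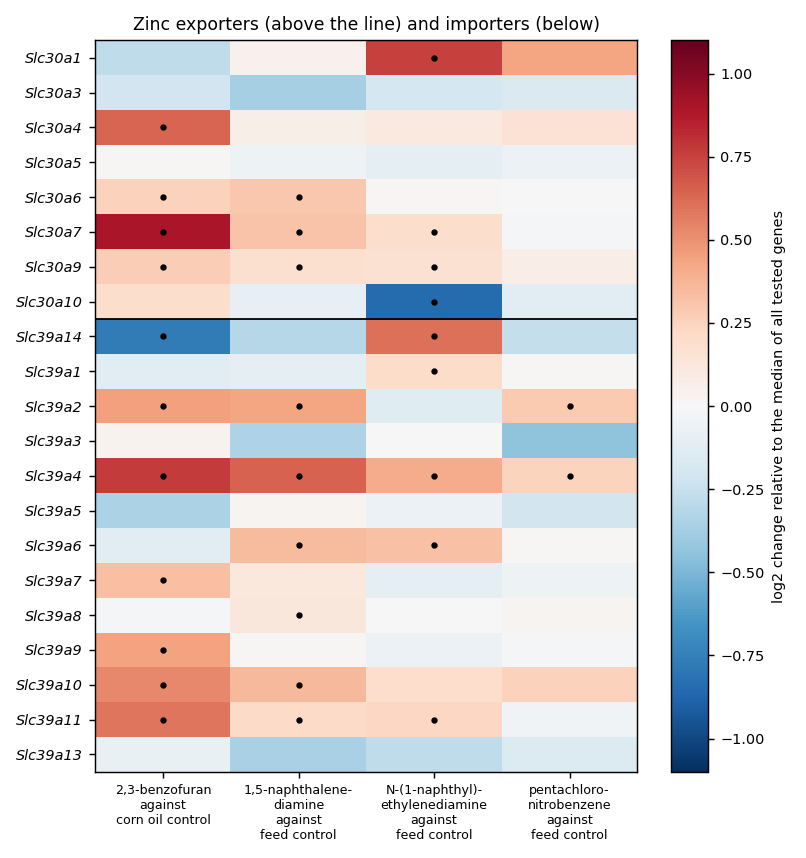
Relative log2 change (colour) of Slc30a1 and the other SLC30 exporters (above the line) and of Slc39a14 and the other SLC39 importers (below it) under each chemical; a dot marks an adjusted p under 0.05. Slc39a4 carries a dot in all 4 columns, and Slc30a10 is the darkest blue cell, under N-(1-naphthyl)ethylenediamine.

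Another metallothionein gene and other genes tied to MTF1 were set beside Mt1 and Mt2. Mt3, which is mainly neuronal, had group means of 4.57 to 4.75, just over the lowest array median, and limma did not call it in any of these 4 comparisons (unadjusted p of 0.479 to 0.82). Of 5 other genes known to depend on MTF1 in mouse (Gclc, Ndrg1, Csrp1, Selenow and Slc39a10, the last being repressed by it), 3 were called higher under 1,5-naphthalenediamine, 2 higher and 1 lower under 2,3-benzofuran, 1 higher and 1 lower under N-(1-naphthyl)ethylenediamine and 1 higher under pentachloronitrobenzene. A rise of the repressed gene Slc39a10 counts as higher here. Its signal was 4.76 to 5.10 in 1,5-naphthalenediamine animals, against 4.26 to 4.40 in feed controls. With gavage it was 4.59 to 5.26 in 2,3-benzofuran animals, against 4.29 to 4.41 in corn oil controls, and both control groups lay close to the lowest array median. Gclc, which makes the rate-limiting subunit of glutathione synthesis, rose by 0.75 ± 0.20 under 1,5-naphthalenediamine (adjusted p = 0.00183) and 0.76 ± 0.20 under 2,3-benzofuran (adjusted p = 0.00313). Under N-(1-naphthyl)ethylenediamine its value was -0.61 ± 0.20 (adjusted p = 0.0838), and the difference from 1,5-naphthalenediamine was called (1.39 ± 0.20, adjusted p = 0.000369). Ndrg1 fell by 0.97 ± 0.25 on the log2 scale under N-(1-naphthyl)ethylenediamine (adjusted p = 0.0212) and by 0.85 ± 0.25 under 2,3-benzofuran (adjusted p = 0.0285). Selenow went the other way. Its signal was 10.56 to 10.69 in N-(1-naphthyl)ethylenediamine animals and 10.66 to 10.67 in pentachloronitrobenzene animals, above the 10.06 to 10.27 of feed controls.

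Genes that heavy metals and electrophiles also induce were counted in the same way. Of 6 tested (Hmox1, Hspa1b, Gclm, Txnrd1, Srxn1 and Nqo1), 5 rose under 2,3-benzofuran, 4 under 1,5-naphthalenediamine, 4 under pentachloronitrobenzene and 2 under N-(1-naphthyl)ethylenediamine. Their median relative changes were 0.72, 0.75, 0.40 and 0.14 in that order, against 0 for all genes. Nqo1, a quinone reductase, rose by 2.49 ± 0.23 under 2,3-benzofuran (adjusted p = 4.39e-07), where Mt1 and Mt2 were not called higher, and by 0.60 ± 0.23 under N-(1-naphthyl)ethylenediamine (adjusted p = 0.0208). Srxn1, which makes sulfiredoxin, rose by 1.75 ± 0.20 under 2,3-benzofuran (adjusted p = 3.74e-06), and its value under N-(1-naphthyl)ethylenediamine was 0.20 ± 0.20 (adjusted p = 0.177). Of 10 copper-handling genes, 3 rose under N-(1-naphthyl)ethylenediamine, 3 under pentachloronitrobenzene and 2 under 1,5-naphthalenediamine, and under 2,3-benzofuran 1 rose and 1 fell. Higher calls over all genes had shares of 24.7%, 14.6%, 31.5% and 24.8% in that order. The copper chaperone Atox1 rose under all 4 chemicals, by 0.53 ± 0.09 under 2,3-benzofuran (adjusted p = 5.19e-05) and 0.46 ± 0.09 under 1,5-naphthalenediamine (adjusted p = 6.02e-05).

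Lists of other known inducers of metallothioneins and Slc39a14 were set beside the members. Of 12 glucocorticoid-induced genes, Fkbp5 (0.88 ± 0.27, adjusted p = 0.0107) and Per1 (1.42 ± 0.28, adjusted p = 0.00167) rose under N-(1-naphthyl)ethylenediamine, where 24.7% of all genes were called higher. Sgk1 and Tat rose under 1,5-naphthalenediamine (adjusted p = 0.0315 and 0.0369), Fkbp5 rose under pentachloronitrobenzene (adjusted p = 0.0401) and Pck1 fell under 2,3-benzofuran (-0.74 ± 0.16, adjusted p = 0.00713). Of 16 acute phase and interleukin 6 response genes, 7 fell under 2,3-benzofuran, where Slc39a14 fell, and none rose, with 7.58% of all genes called lower there. They included Lbp (-1.08 ± 0.13, adjusted p = 6.59e-05), the iron hormone Hamp (-0.76 ± 0.13, adjusted p = 0.00136) and Hp (-0.62 ± 0.11, adjusted p = 0.0017). Under N-(1-naphthyl)ethylenediamine 1 of the 16 rose, Cebpd (0.75 ± 0.23, adjusted p = 0.00889), and the acute phase list median was -0.07. Of 9 genes induced by fasting, 4 rose and 1 fell under N-(1-naphthyl)ethylenediamine, beside 24.7% higher and 4.37% lower over all genes. Ppargc1a rose by 1.68 ± 0.36 (adjusted p = 0.00245), Txnip by 1.03 ± 0.23 (adjusted p = 0.00239), and Fgf21 fell by 1.37 ± 0.38 on the log2 scale (adjusted p = 0.0239). The part of these inducers in the member changes was not tested.

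Clock gene state and RNA quality moved with the N-(1-naphthyl)ethylenediamine group. An index of clock genes, the mean scaled signal of Per1, Per2, Per3, Dbp, Tef, Nr1d1, Nr1d2 and Ciart minus that of Bmal1, Npas2, Clock and Cry1, was 2.39, 2.38 and 2.86 in the N-(1-naphthyl)ethylenediamine animals, against -1.52, -1.17 and 0.625 in feed controls. It was -1.80, -1.68 and -0.758 in the 2,3-benzofuran animals, against -0.864, 2.17 and 2.52 in corn oil controls, whose animals 24 and 25 also had the higher Slc39a14 and Slc30a1 signals of that group. With this index as a covariate the N-(1-naphthyl)ethylenediamine changes were 1.80 for Mt2 (adjusted p = 0.141), 1.81 for Mt1 (adjusted p = 0.0682), 0.13 for Slc30a1 (adjusted p = 0.365) and 0.35 for Slc39a14 (adjusted p = 0.0655). In that fit Mtf1 was the 1 member called under N-(1-naphthyl)ethylenediamine (0.25, adjusted p = 0.0409). The Slc39a14 fall under 2,3-benzofuran was then -0.57 (adjusted p = 0.0769). The RNA integrity number was 7.7, 8.1 and 7.7 in N-(1-naphthyl)ethylenediamine animals, against 8.8, 8.8 and 9.1 in feed controls. With it as a covariate the changes were 1.25 for Mt2, 0.82 for Mt1, 0.57 for Slc30a1 and 0.42 for Slc39a14, and none was called (adjusted p = 0.307, 0.347, 0.161 and 0.09). Neither the clock index nor the RNA integrity number overlapped between the N-(1-naphthyl)ethylenediamine animals and the feed controls. The fits with these covariates thus cannot tell their part from that of the chemical, and the cause of the lost calls was not tested. Without the 5 arrays of high 18S signal, which leaves animal 15 as the only N-(1-naphthyl)ethylenediamine array, Mt2 and Slc30a1 kept their calls (3.21, adjusted p = 0.0289, and 1.09, adjusted p = 0.0442), and Mt1 and Slc39a14 did not (2.13, adjusted p = 0.0509, and 0.69, adjusted p = 0.0667). In that fit, where animal 8 is the only 2,3-benzofuran array, Mt2 was called lower under 2,3-benzofuran (-2.48, adjusted p = 0.0468), and it was called higher under pentachloronitrobenzene (1.40, adjusted p = 0.0474). A lone array is assumed there to vary like the other groups.

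Markers of other liver cells were compared with the members. Of 8 Kupffer cell markers, 4 fell under 2,3-benzofuran and 2 under 1,5-naphthalenediamine, with a log2 of their summed signal of 11.2 to 11.5 in 2,3-benzofuran animals, against 11.7 to 12.0 in corn oil controls. Under pentachloronitrobenzene 1 Kupffer marker was called higher. Of 7 endothelial markers, 2 fell under 2,3-benzofuran and 1 under 1,5-naphthalenediamine, and 1 rose under N-(1-naphthyl)ethylenediamine. Of 7 stellate markers, 2 fell under 2,3-benzofuran and 1 under N-(1-naphthyl)ethylenediamine, and 1 rose under pentachloronitrobenzene. Of 3 bile duct cell markers tested, 1 fell under 1,5-naphthalenediamine and 1 under N-(1-naphthyl)ethylenediamine. Under N-(1-naphthyl)ethylenediamine none of the 8 Kupffer markers was called by limma, with Mpeg1 alone at an unadjusted p under the threshold (0.0396), and their sum of 11.6 to 11.9 lay within the 11.3 to 12.0 of feed controls. Of the 4 neutrophil markers on the array, 1 had a mean under the lowest array median in N-(1-naphthyl)ethylenediamine animals, and their summed signal was 6.46 to 7.90, against 6.37 to 7.03 in feed controls. Of 3 red cell markers on the array, 2 averaged under the lowest array median in each group. The one tested was Alas2, a heme synthesis enzyme of red cell precursors, and it rose under N-(1-naphthyl)ethylenediamine (0.80 ± 0.23, adjusted p = 0.00751). The log2 of the summed red cell marker signal was 8.05 to 8.96 in N-(1-naphthyl)ethylenediamine animals, against 7.25 to 7.74 in feed controls. Of 4 lymphocyte markers tested, the pan-leukocyte gene Ptprc (-0.70, adjusted p = 0.0161) and the granzyme gene Gzma (-0.65, adjusted p = 0.00443) fell under 2,3-benzofuran, with a summed signal of 7.54 to 7.67 in 2,3-benzofuran animals, against 7.87 to 8.06 in corn oil controls. The part of these cells in the member changes was not tested.

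The genes most like each member over the 18 arrays were listed by Pearson's r, as a description over arrays that share treatments and with no p. For Mt2 they were Mt1 (0.917), Pcbp4 (0.864), Fam81a (0.791), Inf2 (0.786) and Tspan9 (0.765), and for Mt1 they were Mt2, Pcbp4 (0.811), Cuedc2 (0.808), Matr3 (0.805) and Pbxip1 (0.802). Over deviations from group means, the genes nearest to Mt2 were Tbc1d10b (0.878), Flvcr2 (0.869), Mt1 (0.851), Prdm4 (0.837) and Ccdc32 (0.825). Slc39a14 lay nearest to the amino acid transporter gene Slc38a2 (0.937), Txnip (0.906) and the endocytic receptor gene Lrp1 (0.905). Slc30a1 lay nearest to Efhd2 (0.896), Gpr146 (0.869) and Sertad1 (0.84), and Mtf1 to Camsap2 (0.818), Wsb2 (0.807) and Btaf1 (0.798). Slc30a1 and Mtf1 were not among the genes nearest to either metallothionein.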

How the data were processed

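Liver RNA of 18 mice was hybridised to Affymetrix mouse arrays, per the labels, in 6 groups of 3 animals set by the labels. The deposited values are log2 signals per probe set; how the authors corrected, normalized and summarised them is not stated by the labels or headers used here. Of 45101 probe sets, 34945 name 1 gene in the platform annotation, 932 several and 9160 none, and 64 are controls. Probe sets above the median of their array in at least 3 arrays were kept (24396), and the brightest on average represented its gene (12169 genes).

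limma 3.58.1 in R 4.3.3 fitted 6 group means with a mean-variance trend (12 residual degrees of freedom, two-sided), with Benjamini-Hochberg adjustment over all genes within each of 11 contrasts. The method was tested on simulated data. Each label names a separate animal. Promoters came from RefSeq (GRCm38.p6). Gene lists and members were chosen with earlier results of these data known. All members were named, and from each list up to 3 called genes with the largest moderated t; Slc39a2, Slc39a6, Slc39a8 and Slc39a10 were named outside this rule after their values were seen, as were differences singled out between chemicals. Likeness took the 5 genes nearest to each metallothionein and 3 nearest to the others. Alternatives covered normalization, centring, filters, probe set choice, trend, array weights, RNA integrity number and clock index as covariates, the samples fitted, a stricter threshold and leaving out arrays. Tests of single probe sets were added after seeing that those of Slc39a14 disagreed.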

Additional observations from a re-analysis of the deposited data

Results flagged for a closer look

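Differences between the effects of chemicals were called by limma for 5 results, and each drew attention because the test was of the difference itself. Only for Slc39a14 under N-(1-naphthyl)ethylenediamine and 2,3-benzofuran were both effects called against their controls, and these went in opposite directions. Slc39a14 was lower under 1,5-naphthalenediamine than under N-(1-naphthyl)ethylenediamine by -0.8961 on the log2 scale, relative to the median of all genes (adjusted p = 0.00114). It was higher under N-(1-naphthyl)ethylenediamine than under pentachloronitrobenzene by 0.8378 on the brightest probe set (adjusted p = 0.00207). The dimmer probe sets of the gene were not called for this pair when tested singly (limma adjusted p of 0.0842 to 0.965). The effect of N-(1-naphthyl)ethylenediamine against feed controls exceeded that of 2,3-benzofuran against corn oil controls by 2.695 for Mt1 (adjusted p = 0.0351) and 3.6497 for Mt2 (adjusted p = 0.0304). For Slc39a14 it did so by 1.3845 on the brightest probe set (adjusted p = 0.000505), and the pair of middle brightness was not called. In this last pair route and vehicle differ together with the chemical.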

How the results depend on the processing

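Values count the members called of 5, unless named otherwise, and the cause of each move was not tested. An unchanged count can hold another member. With each array centred on its own median gene, Slc39a14, lower, was called for 1,5-naphthalenediamine in place of Mt2. Without the 5 arrays of high 18S signal, Mt2, lower, took the place of Slc39a14 for 2,3-benzofuran, with a lone treated array. For 1,5-naphthalenediamine (1 in the fit reported) the count was 2 with the second probe set, the mean of probe sets, the RNA integrity number as a covariate or only the groups compared, and 0 with no trend, array weights, an adjusted p under 0.01 or without the 5 arrays of high 18S signal. For N-(1-naphthyl)ethylenediamine (4) it was 0 with the RNA integrity number, 1 with the clock index (Mtf1, which is not among the 4), and 2 without the 18S arrays or at 0.01. For 2,3-benzofuran (1) it was 0 with the clock index. For pentachloronitrobenzene (0) it was 1 with the second probe set, the mean of probe sets, the clock index or without the 18S arrays. For 1,5-naphthalenediamine minus N-(1-naphthyl)ethylenediamine (1) it was 2 with array weights and 0 with either covariate or without the 18S arrays. For N-(1-naphthyl)ethylenediamine minus pentachloronitrobenzene (1) it was 0 with the second probe set, the mean of probe sets, the clock index or without the 18S arrays. For the N-(1-naphthyl)ethylenediamine effect minus the 2,3-benzofuran effect (3) it was 1 with the second probe set or at 0.01 and 0 with either covariate, and for the pentachloronitrobenzene effect minus the 2,3-benzofuran effect (0) it was 1 without the 18S arrays. Leaving out 1 array gave 0 to 2 for 1,5-naphthalenediamine, 1 to 2 for 2,3-benzofuran, 2 to 4 for N-(1-naphthyl)ethylenediamine, 0 to 1 for pentachloronitrobenzene, 1 to 4 for the N-(1-naphthyl)ethylenediamine effect minus the 2,3-benzofuran effect and 0 to 1 for the pentachloronitrobenzene effect minus the 2,3-benzofuran effect. Slc39a14 reversed under N-(1-naphthyl)ethylenediamine with the second probe set (-0.34) and with the pair of probe sets of middle brightness tested singly (-0.35 and -0.32), and for N-(1-naphthyl)ethylenediamine minus pentachloronitrobenzene with the second probe set (-3e-04). The correlation of Mt1 and Mt2 was 0.44 with the second Mt1 probe set, and 0.319 over deviations from group means. Of the other single-gene values, 1065 kept their direction and side of the threshold, 35 passed it and 66 lost it. No paired analysis was possible because the groups share no animal numbers. Signals under the lowest array median of 4.25 are not shown to be above background.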
